A study of Bos taurus with 6 samples.

Results

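The prostanoid synthesis enzymes and receptors examined here are 10 genes, PTGS1, PTGS2, PTGES, PTGES2, PTGES3, TBXAS1, HPGD, PTGER2, PTGER4 and PTGIR, read by 24 of the 43653 probes of a bovine microarray. A probe was a member when it was not a control and when its gene name, or the symbol in brackets in its description, was one of these 10, and every probe was followed separately. All 24 were found by gene name, and the accession of each gave the same symbol in RefSeq's gene table. Whole blood from the jugular vein of 3 fat-1 transgenic cows was compared with that of 3 wild type cows, with 1 array per animal. All 6 animals were female. Their age was 3 years, except for fat-1 replicate 1 at 3.5 years. Fat-1 is a nematode desaturase that makes omega-3 from omega-6 fatty acids. The labels give neither its promoter nor whether the animals are 1 clone or several, and without a probe annotated to it the genotype labels could not be checked here.

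Prostanoids are made from arachidonic acid, an omega-6 fatty acid of membrane phospholipids. The cyclooxygenases PTGS1 and PTGS2 turn it into the unstable intermediate PGH2, and terminal synthases turn PGH2 into prostaglandin E2, thromboxane A2, prostacyclin and others. PTGS1 is constitutive and is known for thromboxane production in platelets, whereas PTGS2 is induced by inflammatory stimuli in monocytes and other cells. EP2 (gene PTGER2), EP4 (PTGER4) and the prostacyclin receptor IP (PTGIR) are coupled to Gs and raise cyclic AMP, and HPGD starts the breakdown of prostaglandins.

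The probes are 60 bases long, and their sequences and positions are those of the array files, on the bovine build Btau_3.1. Whether a probe lies in an exon or an untranslated region was not looked up, for want of an annotation on the same build. PTGER4 carried the lowest difference of all members, and its probes lie at separate places on the minus strand of chromosome 20. Probe A_73_P106066 lies at chr20:35926105-35926164, 11725 bases upstream of A_73_106857 at chr20:35914380-35914439, and A_73_P316336 at chr20:35914819-35914878 lies 439 bases upstream of it. The whole of A_73_P106066 is shown with the first 30 bases of the other 2, because these probes gave differences of unequal size.
A_73_P106066: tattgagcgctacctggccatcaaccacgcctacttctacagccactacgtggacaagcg
A_73_P316336: tcaggacaacctaacgtgctgataaatatt
A_73_106857: ttgagcctgatagtaatgtggttttaagaa

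The next sequences belong to the 3 genes whose detection or spread shaped the results below, each on the minus strand. They are PTGES2 at chr11:102323760-102323819 and, as the first 30 bases, at chr11:102321928-102321987, PTGS2 at chr16:65515616-65515786, and PTGER2 at chr10:11650952-11651011. The PTGS2 probe covers 171 bases of the genome, more than its own length.
PTGES2 A_73_P083281: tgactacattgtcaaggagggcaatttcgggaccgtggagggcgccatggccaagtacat
PTGES2 A_73_P083276: aaagcccagacttggtttctatccacaggg
PTGS2 A_73_P100746: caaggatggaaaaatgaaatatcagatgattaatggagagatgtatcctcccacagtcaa
PTGER2 A_73_P053761: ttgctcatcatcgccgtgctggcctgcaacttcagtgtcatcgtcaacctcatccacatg

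A pair of PTGES probes, A_73_111837 and A_73_P110216, have the same coordinates, chr11:103800389-103800448 on the minus strand, and differ at 2 bases. Counted from 1 at the 5′ end of the probe, the substitutions are A10C and A59C, with the base of A_73_111837 first. Their first and last 30 bases are shown with the differing base in capitals.
A_73_111837 first: ttttggaacAtaacgaccttctgaatccag
A_73_P110216 first: ttttggaacCtaacgaccttctgaatccag
A_73_111837 last: ggatgtaataaatgaggacttctcacctAc
A_73_P110216 last: ggatgtaataaatgaggacttctcacctCc
These 2 are also the only member probes with the polyadenylation motif AATAAA, searched on the probe strand, against 9.35% of all probes of the array. The pair of TBXAS1 probes overlap on chromosome 4 by 16 bases, CGAAGCAGTTGAAAGC, and so are not independent readings of the transcript.

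Of the probes besides controls, 60.36% to 63.45% were well above background on the fat-1 arrays and 58.37% to 61.23% on the wild type arrays. Arrays correlated at 0.955 to 0.984 over probes, and no spot was saturated. The fat-1 arrays shared a slide and a scan, and the wild type arrays shared another slide and another scan, which means that in every difference below the slide cannot be told apart from the group. The animals are the replicates. With 3 per group, their number limits the precision.

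Of the 10 genes, 5 were detected in whole blood, meaning that a probe was called well above background on 3 or more arrays. The 5 were the cyclooxygenase PTGS1, the synthases PTGES2, PTGES3 and TBXAS1, and the receptor PTGER4. They held 12 probes that could be tested, of which 11 were well above background on all 6 arrays. The other 5 genes were PTGS2, the inducible cyclooxygenase, PTGES, the inducible E synthase, HPGD, PTGER2 and PTGIR. Over their 11 probes, 2 of 33 spots were well above background in fat-1 animals and 2 of 33 in wild type animals. Detection therefore divided the genes in the same way in both groups. By the same rule 26822 of the 43653 probes of the array and 11287 of its 17120 gene symbols could be tested, beside 12 of 24 probes and 5 of 10 genes here.

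**Figure D1:**
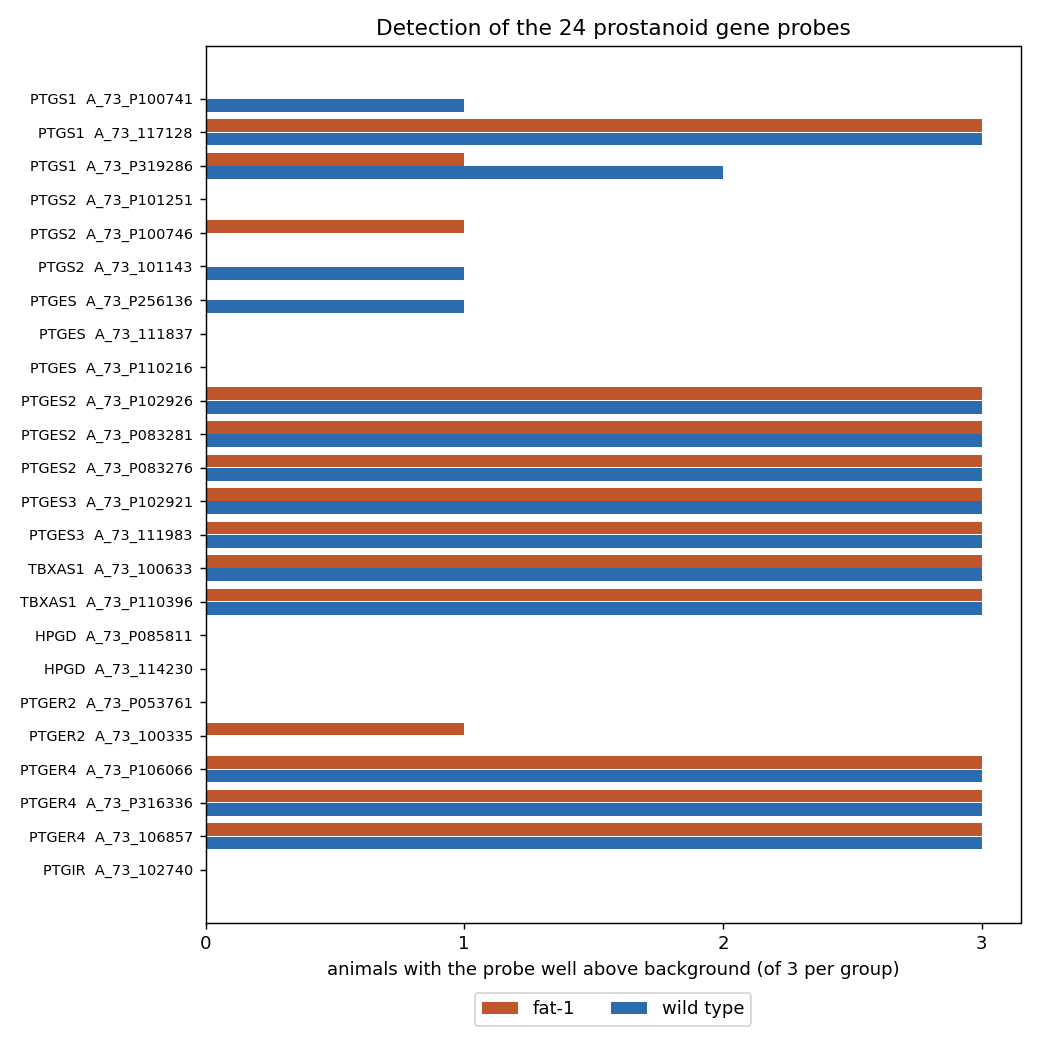
Number of animals, of 3 in each group, in which each of the 24 member probes was well above background (horizontal axis), with fat-1 bars above wild type bars. All probes of PTGES2, PTGES3, TBXAS1 and PTGER4 reach 3 in each group, and no probe of PTGS2, PTGES, HPGD, PTGER2 or PTGIR exceeds 1.

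PTGS1 was present at a low level in every animal, with no difference past the threshold between the groups. Levels here and below are log2 processed intensity minus the array's own 75th percentile, so that 0 is that percentile. On A_73_117128 the level was -1.64, -2.08 and -2.04 in fat-1 animals, against -1.37, -0.80 and -2.40 in wild type animals. The fat-1 values lay inside the wild type range, and wild type replicates 2 and 3 were the highest and the lowest of the 6. The difference, fat-1 minus wild type, was -0.39 ± 0.39 (SE of limma's fit, n = 3 per group) with an adjusted p of 0.618. Without wild type replicate 3 this difference was -0.83, and without wild type replicate 2 it was -0.03. The fainter A_73_P319286, whose coordinates cover 35 bases, fewer than its own length, was well above background in 1 fat-1 and 2 wild type animals. It gave a mean level of -4.56 ± 0.22 in fat-1 and -4.28 ± 0.29 in wild type blood (SD, n = 3 each). Its difference was -0.28 ± 0.24 with an adjusted p of 0.574. The third probe, A_73_P100741, lies 15526 bases upstream of the last one and was well above background only in wild type replicate 1, so it was not tested.

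PTGS2 was dim in both groups, and no probe was well above background in more than 1 animal of a group. Its probe A_73_P100746 had a processed intensity of 8.26, 10.4 and 74.4 in fat-1 animals, against 13.5, 11.1 and 8.07 in wild type animals. It was well above background only in fat-1 replicate 3. Probe A_73_101143 had 6.36, 10.2 and 13.1 in fat-1 animals, against 26.0, 4.36 and 71.8 in wild type animals, and was well above background only in wild type replicate 3. So the single detected array differed between these probes, and neither array was high on the other probe. The remaining probe, A_73_P101251, was not well above background in any animal, with 6.80, 7.11 and 5.76 in fat-1 and 8.83, 8.01 and 30 in wild type animals. Wild type replicate 3 was the highest animal there too. The less strict flag, positive and significant, was set on this probe in 1 fat-1 and 3 wild type animals. It was set in 3 and 2 on A_73_P100746 and in 2 and 2 on A_73_101143. The lowest intensity that counted as well above background was 25.6 to 30.6 on the fat-1 arrays and 21.4 to 37.1 on the wild type arrays. The scanner software puts a substitute value close to background in place of the dimmest signals, per the file headers, so the lowest of these values have no order. No fold change is given for PTGS2.

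The 5 genes most like the brightest PTGS2 probe over the 6 arrays, by Pearson correlation among 11287 genes with a tested probe, were SNURF, SMS, MTMR14, PCMT1 and IK, at 0.950 to 0.964. This probe was well above background only in fat-1 replicate 3, so the likeness rests mainly on the high value there. The 5 genes were picked as the highest of 11287 over only 6 arrays, so their correlations are high in part through the picking. Probe A_73_101143 was nearly as bright but was high in wild type replicate 3 instead, and no such list was made for it.

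**Figure D2:**
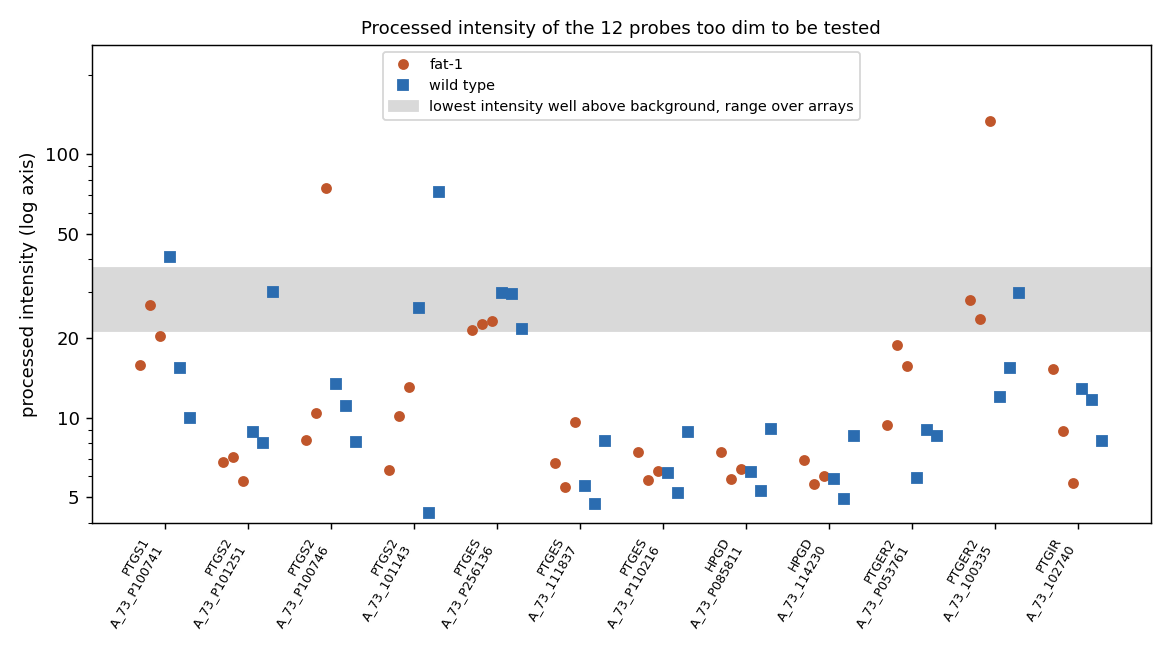
Processed intensity (logarithmic vertical axis) of the 12 member probes that were too dim to be tested, with 3 fat-1 animals (circles, left) and 3 wild type animals (squares, right) per probe. The grey band spans the lowest intensity called well above background on the 6 arrays, 21.4 to 37.1, and most points lie below it.

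Among the E synthases, the inducible PTGES was not measurable and the constitutive PTGES2 and PTGES3 were present in every animal. PTGES probe A_73_P256136 had an intensity of 21.6, 22.7 and 23.2 in fat-1 animals, against 29.7, 29.4 and 21.8 in wild type animals. Only wild type replicate 2 was well above background, although the scanner software called the spot positive and significant on all 6 arrays, a less strict flag. The 2 probes that differ by A10C and A59C had 5.48 to 9.63 in fat-1 animals and 4.70 to 8.85 in wild type animals, none of them well above background.

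PTGES2, a membrane-associated E synthase, had a lower mean in fat-1 blood on each of its 3 probes, none of which passed the threshold. On A_73_P083276 the level was -0.27, -0.35 and -0.29 in fat-1 animals, against 0.18, 0.70 and -0.15 in wild type animals. The fat-1 animals lay close together, all below the lowest wild type animal, by a gap of 0.12. The difference was -0.55 ± 0.25 with an adjusted p of 0.403. On A_73_P083281 the level was -2.78, -3.46 and -2.99 in fat-1 animals, against -2.51, -2.25 and -2.88 in wild type animals. Here fat-1 replicate 1 lay above wild type replicate 3, and the difference was -0.53 ± 0.26 with an adjusted p of 0.417. Probe A_73_P102926, whose coordinates cover 426 bases, gave -2.95, -3.09 and -3.61 in fat-1 animals, against -2.87, -2.86 and -3.55 in wild type animals. Its groups overlapped almost fully, and the difference was -0.12 ± 0.28 with an adjusted p of 0.837. The 95% intervals ran from 0.46-fold to 1.02-fold, from 0.46-fold to 1.05-fold and from 0.59-fold to 1.43-fold of wild type. They cover the spread between animals in the fit, and not any error from the slide.

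PTGES3, also known as p23, is a co-chaperone of HSP90 besides its E synthase activity. Its 2 probes pointed opposite ways with small differences, though both were above 0 with quantile scaling, at 0.02 and 0.20. On A_73_111983 the level was 2.99, 3.1 and 2.93 in fat-1 animals, against 3.05, 3.05 and 3.25 in wild type animals, a difference of -0.11 ± 0.20 with an adjusted p of 0.792. On A_73_P102921 it was 0.32, 0.39 and 0.16 in fat-1 animals, against 0.17, 0.08 and 0.04 in wild type animals, a difference of 0.19 ± 0.20 with an adjusted p of 0.629. Wild type replicate 3 was the highest animal on the first probe and the lowest on the second. Intervals of 0.68-fold to 1.27-fold and of 0.84-fold to 1.56-fold bound the change.

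TBXAS1, the thromboxane synthase of platelets and monocytes, was present in all animals, and its groups overlapped on both probes. On A_73_P110396 the level was 3.11, 2.83 and 2.22 in fat-1 animals, against 2.44, 2.85 and 2.30 in wild type animals. On A_73_100633 it was 1.74, 1.27 and 0.66 in fat-1 animals, against 1.01, 1.33 and 0.80 in wild type animals. The overlapping probes put the 6 animals in the same order, with fat-1 replicate 1 highest and fat-1 replicate 3 lowest. The differences were 0.18 ± 0.29 and 0.17 ± 0.30, with adjusted p of 0.75 and 0.78. Without fat-1 replicate 1, which was also the older animal, they were -0.01 and -0.08, so the direction rested on that animal. The mean level of 11 monocyte marker genes was 4.31, 4.43 and 3.86 in fat-1 animals, against 3.88, 4.27 and 3.79 in wild type animals, and it too was high in fat-1 replicates 1 and 2 and in wild type replicate 2. Neutrophil markers were high in the same animals, at 2.95, 2.99 and 2.61 in fat-1 animals, against 2.58, 3.49 and 2.51 in wild type animals. The mean level of 6 reference genes was 6.57, 6.49 and 6.22 in fat-1 animals, against 6.56, 6.77 and 6.32 in wild type animals. That level was lowest in fat-1 replicate 3 and wild type replicate 3, as TBXAS1 was, so the likeness was not particular to these cell markers. Platelet markers had another order, at 0.97, 0.48 and 0.86 in fat-1 animals, against 0.28, 0.89 and 0.22 in wild type animals. The part of cell numbers in the TBXAS1 level was not tested, and in whole blood fewer cells of a type and less RNA per cell cannot be told apart.

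Before scaling, the processed intensity of TBXAS1 on A_73_P110396 was 6149, 5292 and 4948 in fat-1 animals, against 4031, 4410 and 4359 in wild type animals, with no overlap. The 75th percentile of the arrays was itself 714.2, 745.1 and 1065.2 in fat-1 animals, against 741.1, 610.0 and 885.9 in wild type animals. Dividing by it removed the separation.

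HPGD, which oxidises prostaglandins to inactive 15-keto forms, was not detected on either of its probes. Intensity lay between 5.60 and 7.40 in fat-1 animals and between 4.92 and 9.10 in wild type animals, and no spot was called positive and significant, so that both groups hold only substitute values near background.

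The receptors were represented in blood by PTGER4. Of EP2, probe A_73_P053761 had 9.42, 18.9 and 15.7 in fat-1 animals, against 5.90, 9.02 and 8.56 in wild type animals, none of them well above background. The other EP2 probe, A_73_100335, had 27.9, 23.7 and 133 in fat-1 animals, against 12, 15.5 and 29.8 in wild type animals, with fat-1 replicate 3 alone well above background. The prostacyclin receptor PTGIR had 15.3, 8.89 and 5.67 in fat-1 animals, against 12.9, 11.7 and 8.19 in wild type animals, none of them well above background.

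PTGER4, the EP4 receptor of lymphocytes and monocytes, was lower in fat-1 blood on each of its 3 probes, without any probe passing the threshold. On A_73_P316336 the level was 0.15, 0.37 and 0.41 in fat-1 animals, against 0.84, 0.80 and 0.57 in wild type animals. Every fat-1 animal lay below every wild type animal, by a gap of 0.16. The difference was -0.42 ± 0.21, a fold of 0.75, with an adjusted p of 0.411. On A_73_106857 it was 2.57, 3.1 and 2.82 in fat-1 animals, against 3.27, 3.33 and 3.11 in wild type animals. The groups did not overlap here either, but the gap between fat-1 replicate 2 and wild type replicate 3 was only 0.008. The difference was -0.40 ± 0.22, a fold of 0.76, with an adjusted p of 0.434.

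The upstream PTGER4 probe A_73_P106066 behaved differently from animal to animal. Its level was -3.71, -4.22 and -4.82 in fat-1 animals, against -2.22, -1.31 and -4.40 in wild type animals. Wild type replicates 1 and 2 stood well above the other 4 animals, and wild type replicate 3 fell among the fat-1 animals. In processed intensity these were 54.6, 40.1 and 37.7 in fat-1 animals, against 159, 246 and 41.9 in wild type animals, all well above background. The SD over wild type animals was 1.59, larger than that of 99.1% of tested probes. The difference was -1.61 ± 0.70, a fold of 0.33 with an interval of 0.11-fold to 0.99-fold, an unadjusted p of 0.0484 and an adjusted p of 0.388 in limma's fit. Without wild type replicate 3 it was -2.49 (adjusted p = 0.0854), and without wild type replicate 2 it was -0.94. On the other 2 probes of the gene, lying together downstream, wild type replicates 1 and 2 were also the highest animals, but by far less. Over the 6 arrays A_73_P106066 correlated with A_73_P316336 at r of 0.71 and with A_73_106857 at 0.61.

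**Figure D3:**
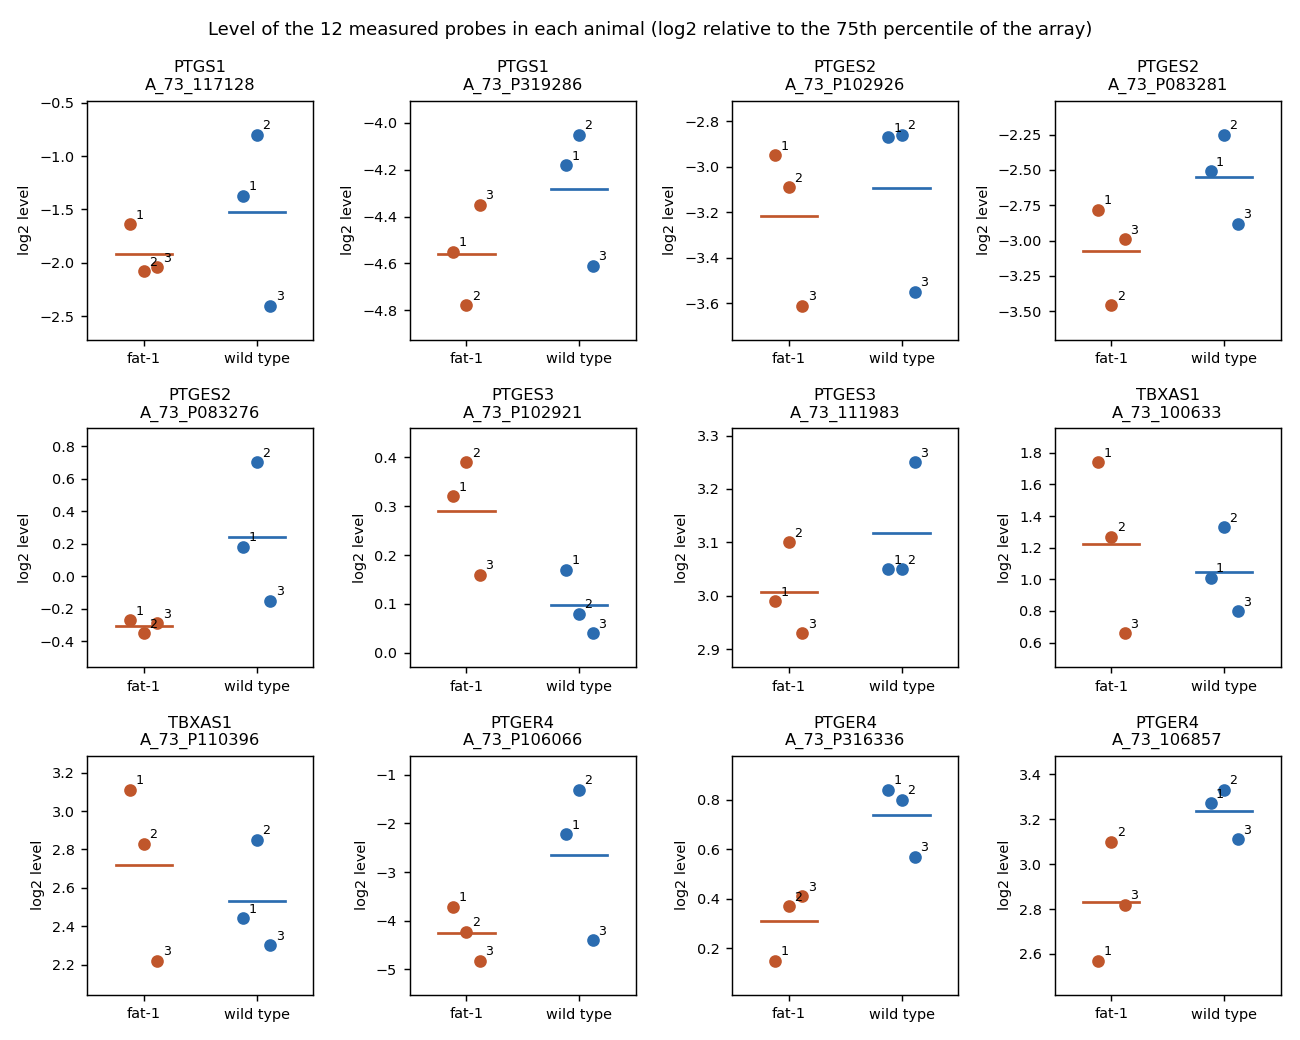
Level of the 12 tested probes in each animal, as log2 intensity minus the array's 75th percentile (vertical axes differ between panels), with fat-1 animals left of wild type animals, replicate numbers beside the points and group means as lines. On PTGER4 A_73_P106066 wild type replicates 1 and 2, at -2.22 and -1.31, stand apart from the other 4 animals, and on TBXAS1 fat-1 replicate 1 is the highest.

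Over the 12 tested probes, 0 passed an adjusted p of 0.05, where 0.172% of all 26822 tested probes did. The adjusted p of the members ran from 0.388 to 0.837. At an unadjusted p under 0.05 there was 1 member probe, PTGER4 A_73_P106066, against 12.8% of all tested probes in either direction and 6.71% on the lower side. The same probe was the only one that was also at least 2-fold different, against 4.05% of all probes. The groups did not overlap on 3 member probes, all lower in fat-1 animals, where 19.6% of all probes did not overlap and 12.7% did so on the lower side. These 3 were PTGES2 A_73_P083276, PTGER4 A_73_P316336 and PTGER4 A_73_106857, and the last 2 read 1 gene.

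The differences of the 12 probes lay between -1.61 and 0.19, with 9 below 0 and a median of -0.34. Over all tested probes the median was -0.06 and 55.4% were below 0. The median standard error was 0.26 for the members and 0.26 for all probes, so the members were measured as precisely as other probes. Several probes read 1 gene, and the 3 above 0 belong to TBXAS1 and PTGES3.

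**Figure D4:**
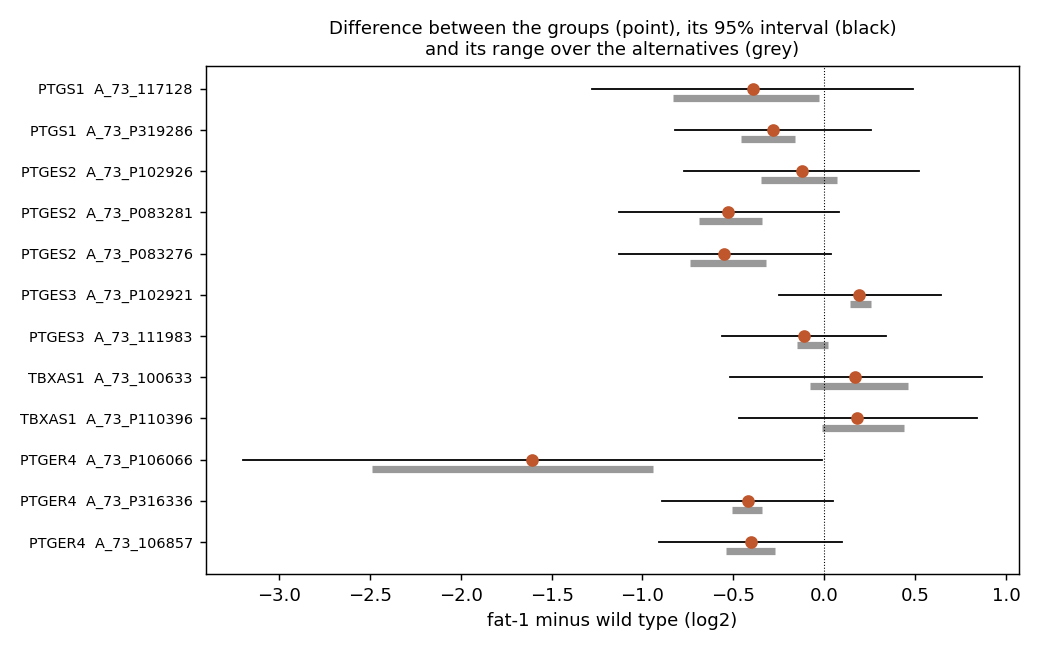
Difference between fat-1 and wild type animals (points, log2) for the 12 tested probes, with its 95% interval (black lines) and its range over the alternative processings and left-out animals (grey bars). Intervals of all probes but PTGER4 A_73_P106066 include 0, and that probe's alternatives run from -2.49 to -0.94.

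Other genes of prostanoid metabolism and transport moved in mixed directions. Of 12 genes, 8 were measured and 5 of them were below 0, with a median of -0.27, and 1 higher and 2 lower at an unadjusted p under 0.05, against 12.1% of all 11287 genes in either direction. Over all genes the median was -0.08 and 58.1% were below 0. None of the 8 passed the adjusted threshold. PRXL2B, a prostaglandin F synthase, was at 1.46, 1.80 and 1.48 in fat-1 animals, against 1.96, 2.77 and 2.20 in wild type animals, without overlap, and its difference was -0.73 ± 0.26 (adjusted p = 0.350). CBR1, a carbonyl reductase that converts prostaglandin E2 to F2α, had a difference of -0.88 ± 0.33 (adjusted p = 0.357). Its probe was faint, well above background in only 1 fat-1 and 2 wild type animals, with mean levels of -5.07 and -4.19. PTGR2, a 15-oxoprostaglandin reductase, had 0.71 ± 0.28 (adjusted p = 0.374), and AKR1B1, an aldo-keto reductase with prostaglandin F synthase activity, -0.53 ± 0.23 (adjusted p = 0.389). The D synthases PTGDS and HPGDS and the prostaglandin transporter SLCO2A1 were too dim to test.

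Of 7 other prostanoid receptor genes, counting the receptor regulator PTGFRN among them, 5 were on the array and 3 were measured, with a median difference of -0.10 (0.02 with quantile scaling) and none at an unadjusted p under 0.05. TBXA2R, the thromboxane receptor, was at 2.11, 2.24 and 2.55 in fat-1 animals, against 2.80, 2.28 and 2.13 in wild type animals, a difference of -0.10 ± 0.25. PTGDR, the D2 receptor DP1, had -0.58 ± 0.42 (adjusted p = 0.528) and -0.11 without fat-1 replicate 1. PTGFRN had 0.08 ± 0.25. PTGER3 and PTGFR were too dim to test. The genes that release arachidonate numbered 8 measured of 18, with 4 below 0, a median of -0.01 and none at an unadjusted p under 0.05. LOC521383 had a difference of -0.66 ± 0.30 (adjusted p = 0.392), and the lysosomal phospholipase gene PLA2G15 -0.56 ± 0.29 (adjusted p = 0.42). PLA2G4A, the cytosolic phospholipase A2 that feeds the cyclooxygenases, had a difference of 0.59 ± 0.36 (adjusted p = 0.463).

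Downstream of EP2, EP4 and IP, 15 of 19 genes of cyclic AMP signalling were measured, 10 of them below 0, with a median of -0.11 (0.03 without wild type replicate 2). At an unadjusted p under 0.05 there was 1 of the 15, where 12.1% of all genes were called. It was PDE4D, a phosphodiesterase that degrades cyclic AMP, with -0.62 ± 0.27 (adjusted p = 0.387). GNAS, the Gs alpha subunit, had -0.30 ± 0.21, and PRKACA, a catalytic subunit of protein kinase A, -0.37 ± 0.25. Of the 12 HSP90 partners of PTGES3, 8 were below 0, with a median of -0.15, which was 0.01 with quantile scaling. FKBP5 had 0.62 ± 0.23 (adjusted p = 0.353) and FKBP4 -0.62 ± 0.24 (adjusted p = 0.367), so these co-chaperones of steroid receptors pointed opposite ways by the same amount.

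Inducers and feedback regulators of PTGS2 lay lower in fat-1 blood than the other pathway lists by their median. Of 20 measured genes, 18 were below 0, with a median of -0.43, and 9 were lower and 0 higher at an unadjusted p under 0.05, where 6.49% of all genes were lower. None passed the adjusted threshold. NFKBIA, the NF-kappa-B inhibitor that is itself an NF-kappa-B target, was at 4.94, 4.92 and 4.97 in fat-1 animals, against 6.22, 6.98 and 6.36 in wild type animals. The groups were far apart with a very narrow fat-1 range, and the difference was -1.58 ± 0.25 (adjusted p = 0.0717). ZFP36, which destabilises AU-rich mRNAs including that of PTGS2, had -0.89 ± 0.23 (adjusted p = 0.214). JUN, a subunit of AP-1, had -1.0 ± 0.29 (adjusted p = 0.269), and the cytokine gene IL1A had -2.27 ± 0.66 (adjusted p = 0.273) at a low level. With quantile scaling, and with the authors' value table, the list's median was -0.21. It was then no longer the lowest list, as the other prostanoid synthases, reductases and transporters lay at -0.22. PTGS2 itself was not compared, as none of its probes was well above background on 3 arrays.

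Of these 20 genes, 6 also stand in a list of immediate-early genes sensitive to blood handling. The other 14 had a median of -0.32, with 12 below 0 and 4 lower at an unadjusted p under 0.05, against 6.49% of all genes. All 15 measured immediate-early genes were below 0, with a median of -0.89, and their summed linear level was 143 to 191 in fat-1 animals, against 235 to 357 in wild type animals, with EGR3 too dim to test. Whether time or handling before RNA extraction differed between the groups is not given in the labels, and its part in these lists was not tested. Reference genes had a median of -0.18 over 6 genes, 5 of them below 0, with PPIA at -0.26 ± 0.20 and RPLP0 at -0.27 ± 0.25. With quantile scaling this median was 0.04, with PPIA at -0.03 and RPLP0 at -0.05.

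**Figure D5:**
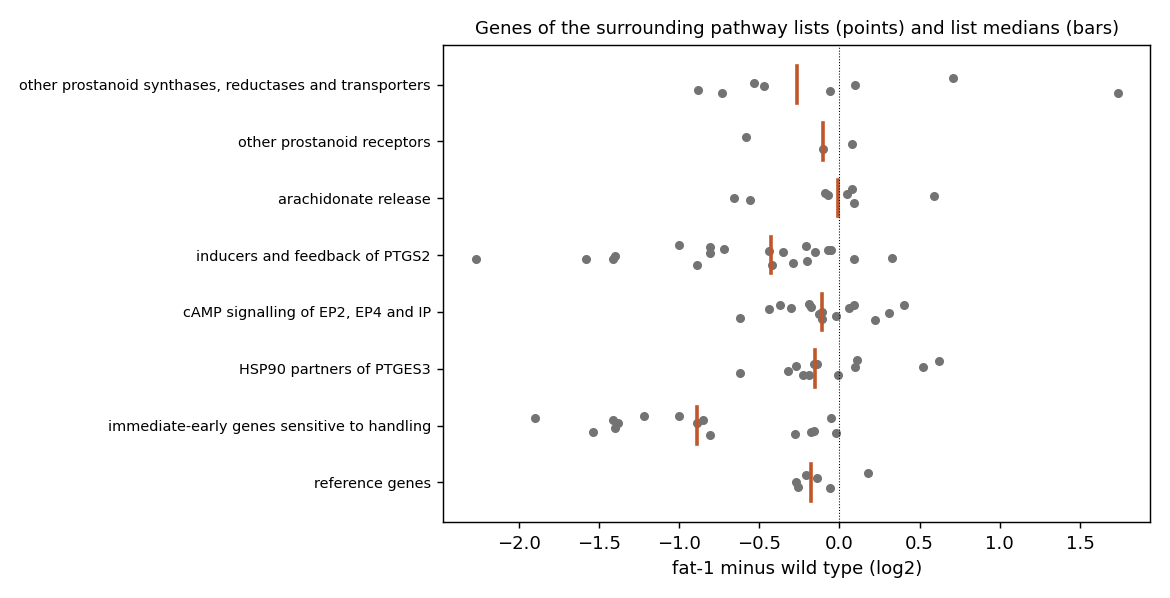
Difference between fat-1 and wild type animals (log2) for each measured gene of 8 lists around prostanoid signalling (points, 1 probe per gene) with the median of each list (bars). The inducers of PTGS2, at a median of -0.43, and the immediate-early genes, at -0.89, lie farthest below 0, and the reference genes lie at -0.18.

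Markers of blood cells were present, as the tissue label says, including S100A8, FCN1, CD79A, CD3E, PPBP and HBA. Platelet markers, beside which PTGS1 and TBXAS1 are usually read, had a median difference of 0.46 over 9 measured genes, with 1 below 0, and a summed linear level of 133 to 213 in fat-1 animals, against 137 to 179 in wild type animals. Monocyte markers had a median of 0.22 over 11 genes, with 3 below 0, and a summed level of 764 to 1050 in fat-1 animals, against 706 to 1100 in wild type animals. Neither sum was separated between the groups.

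T cell markers had a median of -0.19, with 8 of 9 below 0. Leaving out fat-1 replicate 1 gave -0.01, and leaving out wild type replicate 1 gave -0.48. They had a summed level of at most 155 in fat-1 animals, against 167 to 254 in wild type animals, without overlap. Gamma-delta T cell markers, abundant in cattle blood, had a median of -1.45, with 7 of 7 below 0 (-0.84 without fat-1 replicate 1), and sums of 19.7 to 54.8 in fat-1 animals, against 58.8 to 96.0 in wild type animals. B cell markers had a median of -0.29 over 6 genes, with 4 below 0, and sums of 58.5 to 63.7 in fat-1 animals, against 66.2 to 109 in wild type animals. Neutrophil, eosinophil and basophil, NK cell and red cell markers had medians of 0.03, 0.01, -0.29 and 0.95. The T and B cell sums were lower in fat-1 animals, as the PTGER4 means were, but this depended on the measure. The mean log2 level of the T cell markers overlapped, at 1.97 to 2.47 in fat-1 and 2.25 to 2.84 in wild type animals. That of the B cell markers overlapped too, at 0.68 to 1.11 against 0.68 to 1.51. For the gamma-delta T cell markers it did not overlap, at -0.82 to 0.64 in fat-1 and 1.04 to 1.47 in wild type animals. The part of these cells in the PTGER4 differences was not tested.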

How the data were processed

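Cy3-labelled cRNA from each animal was hybridised to a 1-colour Agilent bovine array. The submitters' processing notes name Agilent Feature Extraction 10.7.1.1 as the source of the deposited spot intensity, and the processed intensity is background-subtracted and unscaled between arrays, per the file headers. Deposited flags of 0 or 1 gave spots well above background, positive and significant, or outlying. The authors' deposited value table holds log2 values and served as an alternative. The deposited file of wild type replicate 2 keeps 3 significant digits.

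Processed intensity was taken to log2 minus each array's 75th percentile, repeated spots were averaged per probe, and 32 probes lacking an unflagged spot on any 1 array were dropped. The 26822 probes that were well above background on 3 or more arrays entered lmFit and eBayes (limma 3.58.1, R 4.3.3), with Benjamini-Hochberg adjustment over all of them and a threshold of 0.05. The fit was tested on simulated data, where it called 2% of 100 true differences of 1 on the log2 scale and 82% of 100 true differences of 2. No other probes were changed in the simulation, and the variances were drawn from limma's fitted prior, so these shares hold for that setting. In it a difference of the size of most members would seldom pass the threshold. Names came from accessions through RefSeq (ARS-UCD2.0) for 20595 probes, from symbols for 10745 and from older symbols for 386. Another 2811 kept the file's name and 9116 had none.

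The members and lists were chosen with earlier results of these data known. All members were named with every probe. Of each other list, the members past the threshold and up to 4 with the smallest p were to be named, on the brightest probe per gene, and genes beyond that are named as dim or as markers present. For PTGS2, the 5 most correlated genes are given. Alternatives were quantile scaling, normexp with an offset of 50, other filters on dim probes, the authors' table, an intensity trend, array weights, a replicate block and leaving out each animal.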

Additional observations from a re-analysis of the deposited data

How the results depend on the processing

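The count of 0 member probes past the threshold held under every alternative run, including normexp, array weights, the authors' table and each left-out animal, with the lowest adjusted p of a member at 0.0575 with array weights and 0.0854 without wild type replicate 3. The rule of 2-fold and an unadjusted p under 0.05 gave 1 member probe and 1086 probes in all. Over all probes the count of 46 became 16 with quantile scaling, 16 with the authors' value table, 117 with normexp, 14 with no filter on dim probes, 1102 with array weights and 126 with an intensity trend. Leaving out 1 animal gave 8 to 57, with 8, 12 and 13 when fat-1 replicates 1, 2 and 3 were left out in turn. The cause was not tested. With a replicate block 109 probes passed and again 0 members. The labels share replicate numbers but do not say that these pair the animals. Same-numbered animals deviated together at r of only 0.117, 0.185 and 0.006. The values for replicates 1 and 2 were the highest of all pairs of a fat-1 and a wild type animal, the rest lying between -0.206 and 0.077. Fat-1 replicate 3 correlated better with wild type replicate 1, at 0.077. The slide as a block was not run, since each slide held 1 group. With quantile scaling and with the authors' table PTGES3 A_73_111983 and TBXA2R turned to 0.02 each, and medians also turned above 0 for the reference genes (0.04), the HSP90 partners (0.01), the other receptors (0.02) and arachidonate release (0.03). Leaving out 1 animal gave -0.35 to 0.07 for PTGES2 A_73_P102926, -0.08 to 0.46 for TBXAS1 A_73_100633, -0.01 to 0.44 for TBXAS1 A_73_P110396, -0.24 to 0.10 for TBXA2R and -0.06 to 0.27 for PTGFRN. NFKBIA passed with normexp (adjusted p = 0.0269), the stricter filter (0.0391), the trend (0.0144) and array weights (0.0120), and ZFP36 with array weights (0.0494). Dim signal limits PTGS2, PTGES, HPGD, PTGER2 and PTGIR, for which no difference between groups can be given at this brightness.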

Other observations

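PTGR1, a reductase that inactivates 15-keto prostaglandins and leukotriene B4, was chosen after its values were seen, for its spread among wild type animals. On A_73_104991 its level was 2.26, 2.04 and 2.30 in fat-1 animals, against -1.76, 2.63 and 0.52 in wild type animals. The fat-1 animals were nearly alike, whereas wild type replicate 2 was above all of them and wild type replicate 1 far below. All 5 PTGR1 probes of the array gave this order, and the SD over wild type animals was 2.11 to 2.27, larger than that of 99.7% to 99.8% of tested probes, beside 0.06 to 0.23 in fat-1 animals. The difference on A_73_104991 was 1.74 ± 0.90 (adjusted p = 0.420 in limma's fit). It was 0.63 without wild type replicate 1, 2.82 without wild type replicate 2 and 3.52 with array weights, where it passed (adjusted p = 0.038). The order of the wild type animals on PTGER4 A_73_P106066 was another, with wild type replicate 3 the lowest.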
